A study of Mus musculus with 7 samples.

Results

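The genes described here are the prolactin receptor and the JAK, STAT and SOCS genes that carry or restrain its signal in the islets of pregnant mice. They were the 10 rows, of 34082 gene names in the gene table, whose name was PRLR, GHR, JAK2, STAT5A, STAT5B, STAT3, CISH, SOCS1, SOCS2 or SOCS3, together with the 9 PRLR rows of the 107384 rows of the transcript table. Most names in these tables are human symbols, and they are used here for the mouse genes as the tables give them.

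Islets were taken from 7 C57BL/6 females on day 15 of pregnancy, and 1 RNA library was made per mouse from the hand-picked islets. The 4 βPrlR+/- mice (mice 1 to 4) carried Pdx1CreER, a tamoxifen-dependent Cre joined to an estrogen receptor fragment and driven by the Pdx1 promoter, and had received tamoxifen at 4 mg per day for 5 days to remove 1 floxed Prlr allele from β-cells. The 3 Prlr+/- mice (mice 1 to 3) lacked 1 Prlr allele in every tissue, carried no Cre and received no tamoxifen. They lacked the allele from the start of life, whereas the βPrlR+/- mice lost it in β-cells as adults. Genotype, time of loss, Cre and tamoxifen therefore cannot be told apart. β-cells of both groups had lost an allele, so the comparison covers its loss from the other cells together with these other differences. The design text of the series calls the β-cell deletion homozygous and the 4 sample titles read CkoWt, whereas the methods describe heterozygous mice. The ages are 3 to 4 months in the design text and 4 to 5 months in the methods, and neither source names a litter or a batch. Wild type islets were not analysed here, and the loss of Prlr in either group cannot be read from these values.

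Prolactin and placental lactogen bind the prolactin receptor, which has no kinase of its own and works through the bound kinase JAK2. JAK2 phosphorylates STAT5A and STAT5B, which enter the nucleus and switch on target genes, among them CISH and SOCS2, whose proteins then restrain the receptor. In islets this pathway is known for the growth of β-cell mass and insulin secretion in pregnancy, and growth hormone uses it through its own receptor, GHR.

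The sequences that set the receptor forms apart are shown first, because the transcript values below are read by form. The mouse gene makes a long receptor and short receptors that share the part outside the cell and the start of the tail inside it, and only the long form carries the distal tail with the docking sites for STAT5. The 3 curated RefSeq transcripts among the 9 PRLR rows were found in GENCODE vM21 on GRCm38, on the plus strand of chromosome 15. The long form NM_011169.5 spans chr15:10177655-10337009 and encodes 608 residues. The short forms NM_001253781.1, at chr15:10223986-10349180, and NM_001253782.2, at chr15:10223986-10345782, encode 310 and 303 residues. Each has 10 exons, 8 of them coding. Their coding sequences part after position 10326545. The lines below give the last 30 coding bases they share, in lower case, and the first 60 coding bases of each form's own last coding exon, in capitals.
NM_011169.5: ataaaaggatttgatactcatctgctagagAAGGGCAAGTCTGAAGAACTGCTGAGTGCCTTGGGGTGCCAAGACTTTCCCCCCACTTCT
NM_001253781.1: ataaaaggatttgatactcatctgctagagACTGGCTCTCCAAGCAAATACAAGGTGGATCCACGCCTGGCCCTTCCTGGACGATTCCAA
NM_001253782.2: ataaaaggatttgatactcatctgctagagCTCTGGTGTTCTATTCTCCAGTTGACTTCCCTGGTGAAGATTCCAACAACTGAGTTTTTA

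STAT dimers are known to bind the palindrome TTCNNNGAA, which reads the same on both strands. It was looked for in windows from 250 bases before to 50 bases after the annotated gene starts (RefSeq, GRCm38.p6). Windows were at hand for 9 of the 10 genes, with no entry for Socs2. Of the 14 windows of these genes, 3 held the motif, those of Cish, Socs3 and the second of the 3 Prlr starts, whereas 8.30% of all 32851 windows held it. The Cish window held it at 2 places that did not overlap, as did 0.457% of all windows. The windows with a match are shown up to 30 bases past the gene start, with the motif in capitals. They lie at chr9:107296409-107296688 on the plus strand for Cish, at chr15:10223656-10223935 on the plus strand for Prlr and at chr11:117969337-117969616 on the minus strand for Socs3.
Cish: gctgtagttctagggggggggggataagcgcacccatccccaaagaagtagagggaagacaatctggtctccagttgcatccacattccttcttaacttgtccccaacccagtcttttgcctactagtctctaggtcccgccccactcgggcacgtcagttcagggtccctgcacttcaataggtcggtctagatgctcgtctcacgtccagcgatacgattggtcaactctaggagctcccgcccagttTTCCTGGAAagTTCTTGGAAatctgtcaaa
Prlr, second start: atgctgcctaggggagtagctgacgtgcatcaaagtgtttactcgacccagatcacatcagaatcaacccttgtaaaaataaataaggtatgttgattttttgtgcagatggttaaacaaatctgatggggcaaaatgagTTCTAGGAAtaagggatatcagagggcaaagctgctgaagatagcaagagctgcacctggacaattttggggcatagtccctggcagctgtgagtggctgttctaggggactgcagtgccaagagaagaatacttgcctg
Socs3: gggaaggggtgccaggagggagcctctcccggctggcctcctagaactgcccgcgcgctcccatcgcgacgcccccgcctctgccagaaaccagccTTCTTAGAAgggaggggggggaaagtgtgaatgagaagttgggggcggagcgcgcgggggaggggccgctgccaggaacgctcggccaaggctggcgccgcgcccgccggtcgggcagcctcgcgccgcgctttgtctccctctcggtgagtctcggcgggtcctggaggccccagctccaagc
A match is a description of these letters, and binding was not measured.

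The deposited values are TPM, a level per transcript length that sums to 1000000 in each mouse, and the transcripts of a gene add up to its value. The insulin genes took 46.1% to 58.9% of all TPM, so each mouse was divided by a size factor to give scaled TPM. All 10 genes passed the filter for testing, a mean of 0.5 TPM. Log2 fold changes are Prlr+/- over βPrlR+/- mice on log2(scaled TPM + 1), tested with limma and Benjamini-Hochberg adjustment over the 14840 genes tested. The samples are islet-rich by their markers, with insulin as the leading transcript, but they also hold other cells. The summed level of 9 acinar markers ran from 4530 to 39250 scaled TPM in the βPrlR+/- mice and from 12758 to 31851 in the Prlr+/- mice. In such bulk samples fewer cells of a type and less RNA per cell cannot be told apart.

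None of the 10 genes differed between the groups beyond the spread between mice. None had an adjusted p under 0.05, where 0.0674% of all genes tested did (10 genes), and none had an unadjusted p under 0.05, where 4.52% did. For none did the groups fail to overlap, which held for 4.95% of all genes. The median log2 fold change of the 10 genes was −0.073, beside 0.0042 for all genes tested. Of the 10, 7 had a lower and 3 a higher mean log2 value in Prlr+/- mice (48.3% of all genes tested were lower), and all 10 were lower in unscaled TPM (as deposited), in which all genes tested have a median of −0.12. The 95% confidence intervals of the log2 fold changes reached from −0.84 to 0.49, so changes beyond these bounds lie outside every interval. The gene with the smallest p in the islets was ESR1, the estrogen receptor gene, part of which is in the CreER fusion (log2 fold change −5.83, adjusted p = 1.00e-05 from limma).

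**Figure D1:**
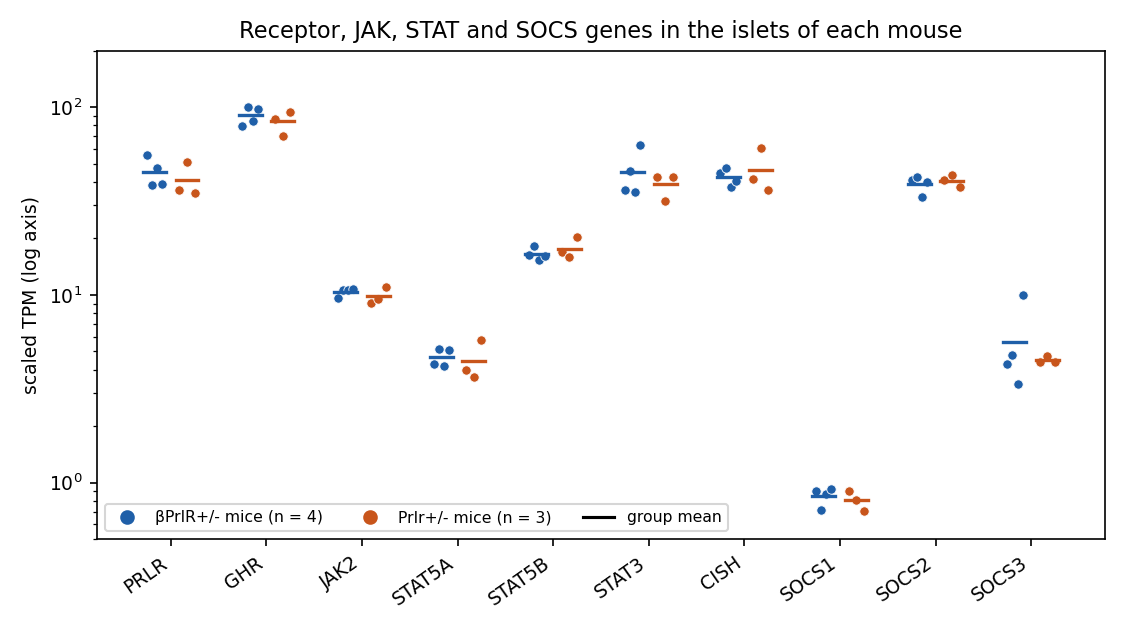
Scaled TPM of the 10 genes in the islets of each mouse, on a log axis; each point is 1 mouse and each bar the mean of its group. The points of the 4 βPrlR+/- mice and of the 3 Prlr+/- mice overlap for every gene, and the genes span from SOCS1, at 0.708 to 0.925, to GHR, at 70.5 to 101.

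**Figure D2:**
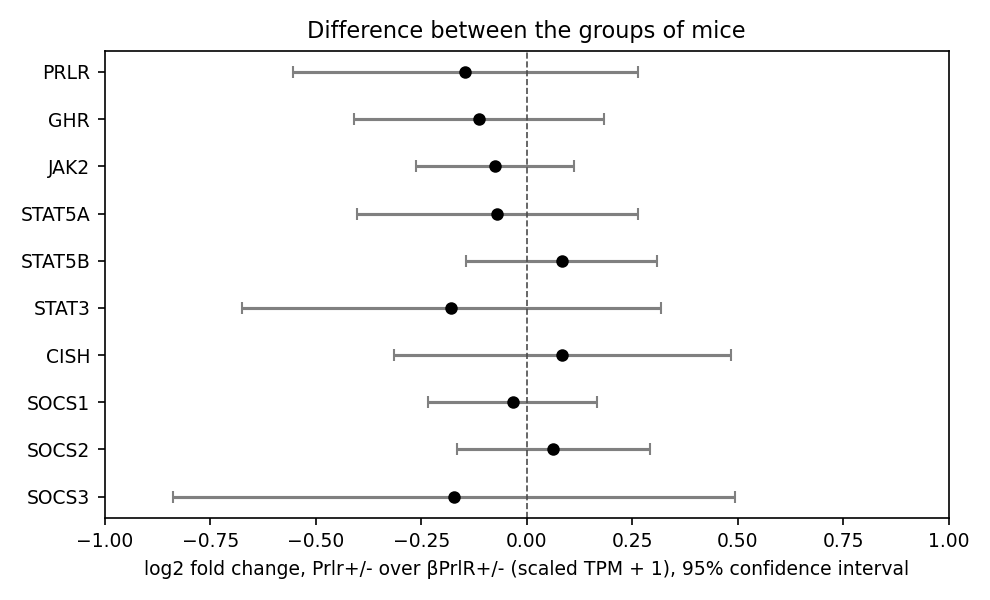
Log2 fold change of each gene, Prlr+/- over βPrlR+/- mice on log2(scaled TPM + 1), with its 95% confidence interval from limma (n = 4 and 3). Every interval includes 0; that of JAK2 is the narrowest and that of SOCS3 the widest.

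The receptors were described first. PRLR, the gene deleted on 1 allele in both groups, had scaled TPM values of 55.7, 38.4, 47.3 and 38.8 across βPrlR+/- mice 1 to 4, against 36.1, 51.1 and 35.1 across Prlr+/- mice 1 to 3. The highest Prlr+/- mouse lay above 3 of the 4 βPrlR+/- mice, so the groups overlapped. They averaged 45.1 ± 8.19 (SD, n = 4) and 40.8 ± 8.97 (SD, n = 3). The log2 fold change was −0.15 with a standard error of 0.17 and a 95% interval from −0.55 to 0.26 (limma, adjusted p = 1.0). As a ratio on that scale the interval runs from 0.681 to 1.20. An exact two-sided permutation test on the 35 ways to divide 7 mice into 4 and 3, whose smallest p is 0.0286, gave p = 0.571. The Prlr deletion takes out an internal exon, and a value summed over the whole transcript does not check the labels.

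GHR, the growth hormone receptor, was the most abundant of the 10 genes. It was at a scaled TPM of 79.5, 101, 84.2 and 98.2 in the βPrlR+/- mice and of 86.7, 70.5 and 94.8 in the Prlr+/- mice. Only Prlr+/- mouse 2 lay below the range of the other group. GHR had a log2 fold change of −0.11 (95% interval −0.41 to 0.18, two-sided exact permutation test p = 0.514). PRLR and GHR were not ordered alike over the mice. PRLR was at 0.700, 0.382, 0.562 and 0.395 of GHR in the βPrlR+/- group and at 0.417, 0.725 and 0.370 in the Prlr+/- group, and this ratio did not separate the groups (exact permutation test, p = 0.943). The sum of both receptors, chosen after the values were seen and given as a description, was between 131.6 and 139.2 in the βPrlR+/- mice and between 121.6 and 129.9 in the Prlr+/- mice. Neither gene alone separated the groups, and how often sums of other gene pairs do so was not computed.

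The 3 mice with the most acinar RNA were also the 3 mice with the most PRLR, which was noticed after the values were seen. βPrlR+/- mice 1 and 3 and Prlr+/- mouse 2 had the highest acinar sums, 37752, 39250 and 31851 scaled TPM, against 4530 to 15882 in the other 4 mice. The same 3 mice had the 3 highest values of PRLR, 47.3 to 55.7 against 35.1 to 38.8 in the other 4. Within these sets of 3 and 4 mice the orders differed: Prlr+/- mouse 3 had the highest acinar sum of the 4 and the lowest PRLR of all 7. The 3 mice also had the 3 lowest values of GHR, 70.5 to 84.2 against 86.7 to 101, and of STAT3, 31.7 to 36.1 against 42.3 to 63.0. Over all genes tested, 5.05% had their 3 highest and 5.39% their 3 lowest values in these mice. With the TPM as deposited, these mice again held the 3 highest values of PRLR, at 50.8 to 52.6 against 30.9 to 41.3, and did not hold the 3 lowest of GHR or STAT3. With the log2 acinar sum of each mouse as a covariate, an alternative added after seeing the data, the log2 fold change of PRLR between the groups was −0.16 (limma, adjusted p = 1.0). Whether acinar cells supply any of the PRLR RNA was not tested.

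**Figure D3:**
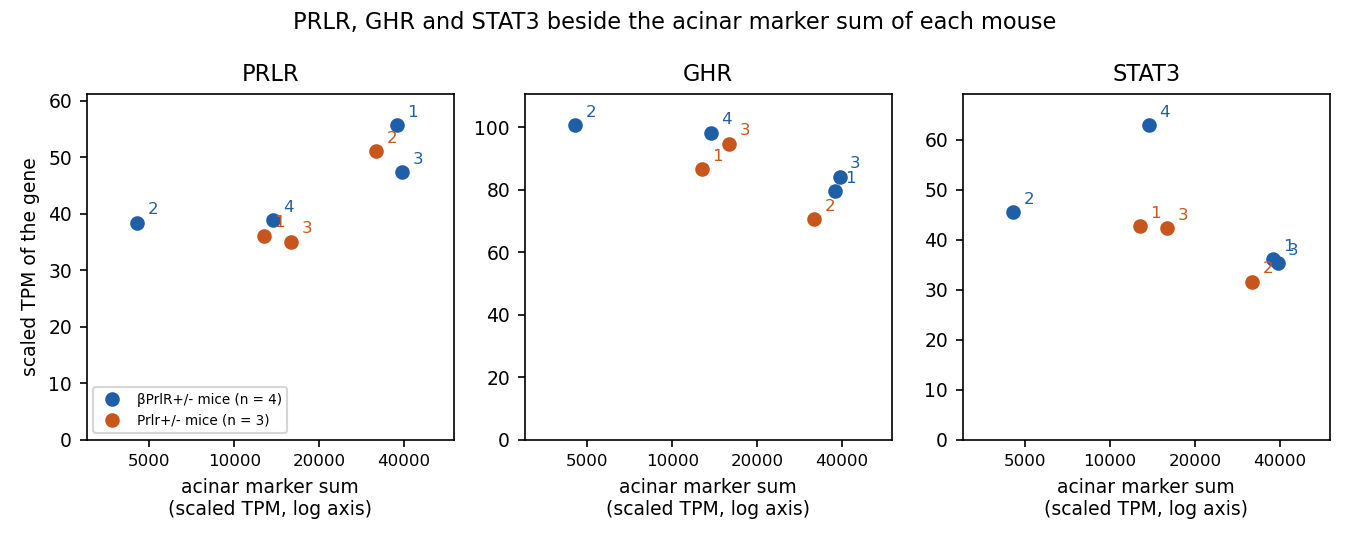
Scaled TPM of PRLR, GHR and STAT3 in each mouse against the summed scaled TPM of 9 acinar markers (log axis); points are mice, with the mouse number beside each. The 3 mice with an acinar sum of 31851 or more have the highest PRLR, at 47.3 to 55.7, and the lowest GHR and STAT3.

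JAK2, the kinase bound to both receptors, was the steadiest of the 10 genes, with a coefficient of variation of 7.63% over the 7 mice. It was at a scaled TPM of 9.61, 10.7, 10.6 and 10.8 in the βPrlR+/- mice and of 9.06, 9.48 and 11.05 in the Prlr+/- mice. Prlr+/- mice 1 and 2 lay just below all βPrlR+/- mice and Prlr+/- mouse 3 above them. Its log2 fold change was −0.075 (95% interval −0.26 to 0.11, exact permutation test p = 0.343).

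The STAT factors that carry the signal to the nucleus were led by STAT3 and STAT5B. STAT5B was at a scaled TPM of 16.3, 18.3, 15.4 and 16.2 in the βPrlR+/- mice and of 16.8, 15.9 and 20.3 in the Prlr+/- mice. STAT5A, its close relative, was at 4.27, 5.13, 4.19 and 5.09 and at 3.97, 3.63 and 5.78. For both genes the highest value was in Prlr+/- mouse 3 and the groups overlapped. The log2 fold changes were 0.083 for STAT5B (95% interval −0.14 to 0.31) and −0.070 for STAT5A (−0.40 to 0.26), and that of STAT5B was −0.056 with the TPM as deposited. STAT5A made up 22.0% ± 1.36 (SD, n = 4) of both STAT5 genes together in the βPrlR+/- group and 19.98% ± 1.95 (SD, n = 3) in the Prlr+/- group (exact permutation test, p = 0.229, 0.743 after adjustment over 6 ratios). The genes are near copies in places. Of the 31-base words in the coding transcripts of Stat5a, 20.2% also occur in Stat5b, so reads from those stretches are divided between them by the estimate of the authors' tool.

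STAT3, which serves receptors of the interleukin-6 family as well as hormone receptors, was at a scaled TPM of 36.1, 45.5, 35.4 and 63.0 in the βPrlR+/- mice and of 42.7, 31.7 and 42.3 in the Prlr+/- mice. βPrlR+/- mouse 4 stood highest and Prlr+/- mouse 2 lowest. Its log2 fold change was −0.18 (95% interval −0.68 to 0.32, exact permutation test p = 0.571), and it was −0.0068 without βPrlR+/- mouse 4.

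The feedback inhibitors are read next, since CISH and SOCS2 are classical STAT5 targets and their RNA is often taken as a measure of STAT5 activity. CISH, a cytokine-inducible SH2 protein, was at a scaled TPM of 44.5, 47.7, 37.7 and 40.5 in the βPrlR+/- mice and of 41.6, 60.5 and 36.3 in the Prlr+/- mice. Prlr+/- mouse 2 had the highest and Prlr+/- mouse 3 the lowest value of all 7. SOCS2, which restrains growth hormone signalling, was at 40.8, 42.5, 33.1 and 39.7 and at 40.9, 43.6 and 37.6. Its highest value was again in Prlr+/- mouse 2 and its lowest in βPrlR+/- mouse 3. The log2 fold change was 0.084 for CISH (95% interval −0.32 to 0.48, exact permutation test p = 0.743) and 0.063 for SOCS2 (−0.16 to 0.29, p = 0.571). With the TPM as deposited these values were −0.058 and −0.079.

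CISH over SOCS2 was 1.09 ± 0.052 (SD, n = 4) for the βPrlR+/- mice against 1.12 ± 0.23 (SD, n = 3) for the Prlr+/- mice. Per unit of receptor RNA, CISH over PRLR was 0.970 ± 0.21 and 1.12 ± 0.079, and SOCS2 over PRLR 0.890 ± 0.20 and 1.02 ± 0.15. The 6 ratios between members that were compared had adjusted p values from 0.743 to 0.943 (exact permutation tests).

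SOCS3 and SOCS1, which bind JAK kinases and restrain cytokine signalling, were the low members of the inhibitors. SOCS3 was at a scaled TPM of 4.27, 4.80, 3.37 and 9.93 in the βPrlR+/- mice and of 4.38, 4.70 and 4.38 in the Prlr+/- mice, the largest coefficient of variation of the 10 genes (42.4%). βPrlR+/- mouse 4 was far above the other 6 mice, which ran from 3.37 to 4.80. The log2 fold change of SOCS3 was −0.17 (95% interval −0.84 to 0.49, exact permutation test p = 0.886) and 0.10 without that mouse. SOCS1 was the lowest of the 10 genes, at 0.899, 0.711, 0.864 and 0.925 and at 0.902, 0.811 and 0.708, with a log2 fold change of −0.033 (95% interval −0.23 to 0.17).

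The mouse with the highest STAT3 and SOCS3 was also the highest for other genes of the acute phase response, which STAT3 is known to switch on. LCN2, a secreted protein that binds bacterial iron carriers, was at a scaled TPM of 4.88 in βPrlR+/- mouse 4 and at 0.285 to 1.48 in the other 6 mice. BCL3 was at 6.63 there against 2.51 to 4.05, and REG3G, an antibacterial lectin, at 9.10 against 0.897 to 3.27. Of the 5 tested genes of a STAT3 target and acute phase list, 4 had their highest value in this mouse, whereas 8.69% of all genes tested did. Of the 9 genes of the list that were above 0 but too low to be tested, 4 were highest there, FGA, FGB and FGG of fibrinogen and IL6 at under 0.65. The acute phase genes SAA1, Saa3 and HP were highest in Prlr+/- mice at under 0.2, and CXCL2 and CCL2 in βPrlR+/- mouse 1, at 0.139 and 0.610. The 5 tested genes all had a lower mean log2 value in Prlr+/- mice (median −0.30), with none past the adjusted p. Without βPrlR+/- mouse 4, left out after the data were seen, 2 were lower and 3 (LCN2, REG3A and REG3G) higher, with a median of 0.11. The most abundant of them, REG3A, was at 225 in βPrlR+/- mouse 4 and at 214 in Prlr+/- mouse 2. In βPrlR+/- mouse 4 the summed leukocyte markers were at 20.7, the lowest of the 7 mice, with most of the sum from the B-cell gene CD79A at 14.6. The macrophage genes CD68, ADGRE1 and CSF1R were lowest of all 7 in this mouse, at 1.43, 0.651 and 1.74, and CD14 was second highest at 1.77. The part of leukocytes in these values was not tested.

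**Figure D4:**
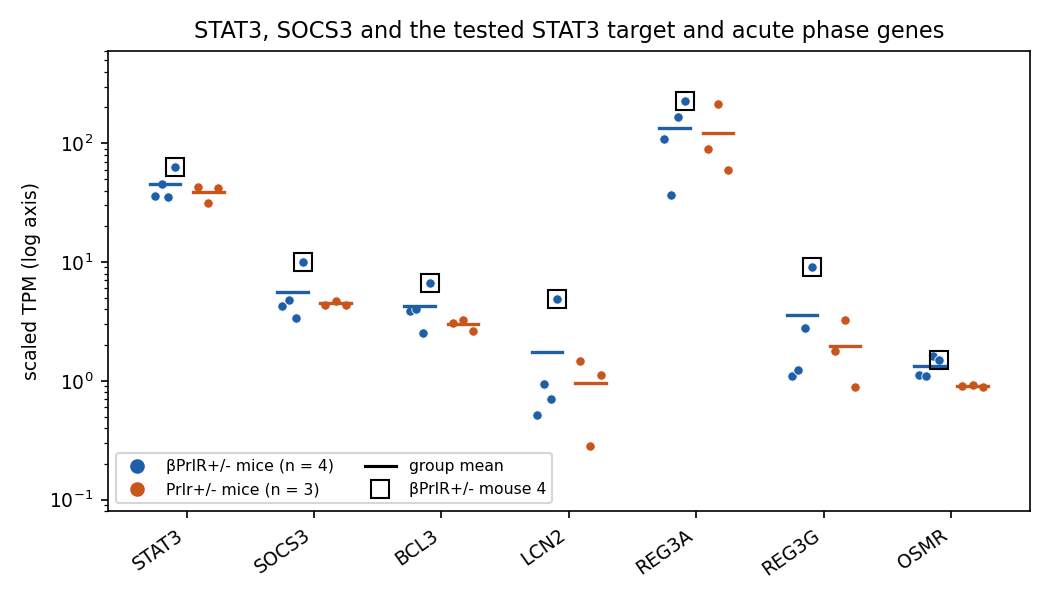
Scaled TPM (log axis) of STAT3, SOCS3 and the 5 tested STAT3 target and acute phase genes; points are mice, bars group means, and squares mark βPrlR+/- mouse 4. The square is the top point for STAT3, SOCS3, BCL3, LCN2, REG3A and REG3G and not for OSMR.

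By level per length, in scaled TPM, GHR led with a mean of 87.8 over the 7 mice and was above CISH, the next gene, in 7 of 7. CISH, PRLR, STAT3 and SOCS2, with means of 44.1, 43.2, 42.4 and 39.7, were not separated from their neighbours. CISH was above PRLR in 5 mice, PRLR above STAT3 in 3 and STAT3 above SOCS2 in 5. STAT5B followed at 17.03 and JAK2 at 10.2, each above the next gene in 7 of 7 mice. SOCS3 at 5.12 and STAT5A at 4.58 overlapped, and SOCS1 was last at 0.831. Of all genes tested, 4.42% had a higher mean than GHR, 9.88% a higher mean than PRLR and 91.5% a higher mean than SOCS1.

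The 9 transcripts of PRLR were compared next, to see which of them hold the value of the gene. The predicted transcripts XM_006520037.2 and XM_006520034.3 together held 66.3% to 80.4% of PRLR in each mouse. The long form NM_011169.5 held 11.8% ± 3.41 (SD, n = 4) of it in the βPrlR+/- group and 8.04% ± 2.83 (SD, n = 3) in the Prlr+/- group (exact permutation test, p = 0.171). The short form NM_001253781.1 held 6.24% ± 0.54 and 6.75% ± 1.23. The other short form, NM_001253782.2, was listed at 0 in 6 mice and at 0.275 in Prlr+/- mouse 3. The predicted transcripts are given by name alone, so which of the coding ends shown above they carry is not stated here. Reads from the stretches that the transcripts share are divided between them by an estimate. The last exon, which the curated forms do not share, makes up 8729 of the 9900 bases of NM_011169.5 and 2771 of the 3836 bases of NM_001253781.1.

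Of the 6 PRLR transcripts that could be tested, none had an adjusted p under 0.05, as did 0.0210% of the 28553 transcripts tested. At an unadjusted p under 0.05 there were 2 of the 6, beside 3.91% of all transcripts, and the groups did not overlap for 1, beside 4.43%. That transcript was XM_006520036.1, at a scaled TPM of 3.88, 1.45, 2.89 and 2.15 in the βPrlR+/- mice and of 0.615, 0.379 and 0.358 in the Prlr+/- mice. Its lowest βPrlR+/- mouse was above all Prlr+/- mice. It averaged 2.59 ± 1.04 (SD, n = 4) and 0.451 ± 0.14 (SD, n = 3). The log2 fold change was −1.27 with a standard error of 0.24 (limma, unadjusted p = 7.9e-04, adjusted p = 0.729). Its share of PRLR was 5.60% ± 1.34 in βPrlR+/- mice and 1.15% ± 0.49 in Prlr+/- mice (exact permutation test, p = 0.0286, the smallest possible, and 0.257 after adjustment over the 9 transcripts). The level of XM_006520036.1 had p = 0.0571 in the exact permutation test.

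The long form NM_011169.5 was at a scaled TPM of 3.90, 5.62, 5.53 and 5.36 in the βPrlR+/- mice and of 2.56, 2.97 and 3.94 in the Prlr+/- mice. βPrlR+/- mouse 1 lay just below Prlr+/- mouse 3, and the other 3 βPrlR+/- mice were above all Prlr+/- mice. With the TPM as deposited the groups did not overlap for this transcript. Under that scaling 8.71% of all genes tested did not overlap, and the share over all transcripts was not computed. In scaled TPM it averaged 5.10 ± 0.81 (SD, n = 4) and 3.16 ± 0.70 (SD, n = 3). The log2 fold change was −0.56 with a standard error of 0.16 (limma, unadjusted p = 0.00919, adjusted p = 1.0). The level had p = 0.0857 in the exact permutation test.

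The difference between the group means of PRLR, −4.31 scaled TPM, was made up of −2.14 from XM_006520036.1, −1.95 from NM_011169.5 and a net −0.22 from the other 7 transcripts together. Of these 7, XM_006520037.2 gave −0.81 and NM_001253781.1 −0.059, and the rest, at 0.092 to 0.21, went the other way. Together these 7 averaged 37.4 ± 7.88 (SD, n = 4) and 37.2 ± 9.24 (SD, n = 3). This division was made after the values were seen and is a description. The short form NM_001253781.1 was at 2.78 ± 0.25 and 2.72 ± 0.55, and its 3 highest values were in the 3 mice with the highest acinar sums.

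**Figure D5:**
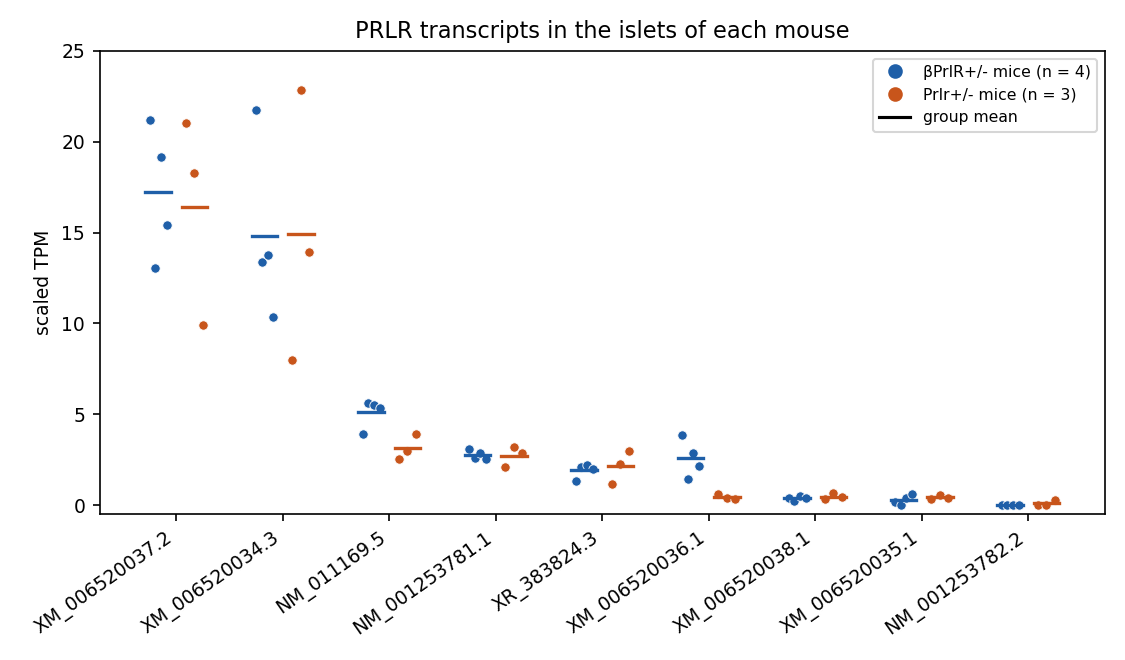
Scaled TPM of the 9 PRLR transcripts in each mouse, ordered by their mean; points are mice and bars group means. XM_006520036.1 is at 1.45 to 3.88 in the βPrlR+/- mice and at 0.358 to 0.615 in the Prlr+/- mice, and the 2 most abundant transcripts overlap widely.

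Other genes of the pathway were looked at by lists. None of their genes had an adjusted p under 0.05. Of 13 genes of hormones that bind the receptors and their relatives, 6 were found in the table, Prl and 5 placental members of its family, and all 6 were listed at 0 in every mouse. Among these, prolactin and the placental lactogen Prl3b1 are known to bind the prolactin receptor, and no growth hormone gene was found under the names looked for. Of the 3 other JAK kinases 1 was lower and 2 were higher in mean log2 value in Prlr+/- mice. JAK1, the most abundant, was at 41.4 ± 1.504 (SD, n = 4) and 44.2 ± 4.55 (SD, n = 3) scaled TPM, and JAK3 had the largest lower value, a log2 fold change of −0.45. STAT2 had a log2 fold change of −0.080 and STAT6 of −0.019. Of the 4 other SOCS genes 3 were lower and 1 higher, from −0.11 for SOCS4 to 0.038 for SOCS6, and SOCS7 was the most abundant at 10.2 ± 0.46 and 9.997 ± 0.42. The medians were 0.079 for the JAK list and −0.016 for the SOCS list, beside 0.0042 for all genes tested.

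Of 16 tested receptors that use JAK kinases, 10 were lower and 6 higher in mean log2 value, with a median of −0.039. The largest values were −0.42 for IL4R, the interleukin-4 receptor, and 0.31 for CSF2RB, the shared chain of several myeloid cytokine receptors. The groups did not overlap for 2 of the 16, beside 4.95% of all genes tested. These were LEPR, the leptin receptor, and OSMR, the oncostatin M receptor, with log2 fold changes of −0.24 and −0.29 (limma, both adjusted p = 1.0). LEPR was low, averaging 0.750 scaled TPM in the βPrlR+/- mice and 0.479 in the Prlr+/- mice, as was OSMR, at 1.33 and 0.904. IL6R, the interleukin-6 receptor, was the most abundant at 62.9 ± 8.82 (SD, n = 4) and 55.9 ± 5.19 (SD, n = 3). Of 19 phosphatases, PIAS proteins and adaptors, 11 were lower and 8 higher, with a median of −0.030. PTPN11, the phosphatase SHP2 that binds activated cytokine receptors, had the largest higher value. It was at a scaled TPM of 44.0, 45.4, 43.9 and 44.2 in the βPrlR+/- mice and of 46.4, 51.4 and 53.8 in the Prlr+/- mice, and it was the 1 gene of the 19 for which the groups did not overlap, beside 4.95% of all genes tested. Its log2 fold change was 0.18 (standard error 0.063, unadjusted p = 0.0238, adjusted p = 0.963 from limma). GAB1, an adaptor, had the largest lower value at −0.22, and the adaptor SHC1 was the most abundant at 58.1 ± 8.18 and 62.0 ± 1.44.

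Of 16 tested genes on a list of prolactin and STAT5 targets in islets or other cells, 6 were lower and 10 higher in mean log2 value in Prlr+/- mice, with a median of 0.079. Most are known to be raised by the hormone, but MEN1, one of the 10 at 0.043, codes for menin, which prolactin is known to lower in islets. TPH1, the enzyme that starts serotonin synthesis and is induced in β-cells in pregnancy, was at a scaled TPM of 10.2, 6.31, 2.77 and 3.03 in the βPrlR+/- mice and of 2.89, 24.6 and 4.15 in the Prlr+/- mice. Prlr+/- mouse 2, the highest for CISH and SOCS2, was the highest for TPH1 too, and its log2 fold change, 0.43 with a standard error of 0.69 (limma, adjusted p = 1.0), had the largest standard error of the list. CCND2, a cyclin of β-cell growth and the most abundant of the list, was at 163, 149, 159 and 156 and at 164, 200 and 154. It was again highest in Prlr+/- mouse 2. CCND1, another cyclin, was the 1 gene of the 16 for which the groups did not overlap, beside 4.95% of all genes tested, with a log2 fold change of 0.31 (limma, unadjusted p = 0.0298, adjusted p = 1.0). In all, 5 of the 16 genes were highest in this mouse, as were 23.2% of all genes tested. PIM3, a kinase gene, had the largest lower value at −0.24.

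The immediate early genes, which respond to handling and to many signals, were 7 lower and 3 higher of 10 tested. JUNB had the largest lower value at −0.36 and was also the most abundant, and NR4A1 the largest higher value at 0.91 (limma, unadjusted p = 0.0458, adjusted p = 1.0). Among the cell type markers, 9 of 9 β-cell genes had a higher mean log2 value in Prlr+/- mice (median 0.30). Lower ones were found for 5 of 5 α-cell genes (median −0.22), 3 of 3 δ- and PP-cell genes (median −0.22) and 6 of 6 endothelial genes (median −0.23). Acinar genes were higher in 9 of 9 (median 0.095), leukocyte genes higher in 5 of 6 and fibroblast and pericyte genes lower in 4 of 5. Of 3 duct genes 1 was lower and 2 were higher. No gene of these marker sets had an adjusted p under 0.05. Of 7 tested neuron and glia genes, 6 had a lower and 1 a higher mean log2 value. Of these, STMN2, PRPH and THY1 were lower with an adjusted p under 0.05 (limma, 3 genes, beside 0.0674% of all genes tested), and ELAVL4, an RNA-binding protein of neurons, was the higher one, with a log2 fold change of 0.27 (limma, adjusted p = 0.807). With a single mouse left out at most 1 of the 3 passed, and none passed without βPrlR+/- mouse 2 or 4 or Prlr+/- mouse 1 or 3. None passed with all genes above 0 tested, STMN2 alone passed with the acinar covariate, and THY1 did not pass with upper-quartile scaling. The summed δ- and PP-cell markers ran from 13627 to 16244 scaled TPM in the βPrlR+/- mice and from 12101 to 12752 in the Prlr+/- mice. The summed neuron and glia markers ran from 52.0 to 57.9 and from 40.8 to 42.9. For the summed β-cell, α-cell and endothelial markers the groups overlapped. The part of these differences in the values of the 10 genes was not tested.

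Whether the other members moved with PRLR over the 7 mice was tested as 9 relations on log2(scaled TPM + 1). PRLR and GHR had a Pearson's r of −0.78 (exact permutation test, p = 0.0464, adjusted p = 0.302) and a Spearman's rho of −0.68 (p = 0.110, adjusted p = 0.480). Without the 2 mice farthest from the median of PRLR, βPrlR+/- mouse 1 and Prlr+/- mouse 2, the r was −0.47, and with the TPM as deposited it was −0.22. The relation thus rests on those mice and on the scaling. PRLR and CISH had an r of 0.48 (p = 0.285, adjusted p = 0.513) and a rho of 0.50 (p = 0.267, adjusted p = 0.480), and the r was −0.14 without these 2 mice. In all 7 mice the r was negative for STAT5B (−0.66), STAT3 (−0.65), STAT5A (−0.63), JAK2 (−0.37) and SOCS3 (−0.29). It was positive for SOCS1 (0.35) and SOCS2 (0.035). That of STAT5B was −0.74 without the 2 mice and −0.42 with the TPM as deposited. None of the 9 relations had an adjusted p under 0.05. No r was computed within the groups of 4 and 3 mice.

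The genes whose pattern over the 7 mice was most like that of PRLR were, among 9000 genes averaging 5 TPM or more, HDHD2 and CERS6, each with an r of 0.95, N4BP1 with 0.94, and MSN and DHX34 with 0.93. MSN, which codes for moesin, was at a scaled TPM of 6.10 to 10.5. This likeness is a description over 7 mice. Over 0.9 were 12 genes, or 0.133% of those compared.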

How the data were processed

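RNA was sequenced from the islets of 4 βPrlR+/- and 3 Prlr+/- mice, grouped from the sample labels. The members and lists were chosen with earlier results of these data known. The authors enriched poly(A) RNA, prepared directional libraries and quantified mouse RefSeq transcripts by Kallisto 0.42.4 (the version also stands in the submitters' processing notes). The genome build is not given in the sources used here. The methods name FPKM, but what the authors deposited sums to 1000000 per mouse and was handled as TPM. TPM keeps no depth, so no counting interval is given. The files of single mice held the same values as the tables of all mice. Nothing says whether mice were littermates, so p-values measure the spread between these mice.

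TPM was divided by median-ratio size factors (from genes averaging 0.5 TPM or more and above 0 in every mouse). Genes averaging 0.5 TPM or more entered limma 3.58.1 in R 4.3.3 as log2(scaled TPM + 1), with a mean-dependent variance and Benjamini-Hochberg adjustment with a threshold of 0.05. Transcripts were tested likewise with the same size factors. Single values were compared by two-sided exact permutation tests over 35 splits. The code was tested on simulated data. An exact 0 may be a failed estimate and is given as listed at 0. Alternatives were a pseudocount of 0.1, unscaled TPM, upper-quartile scaling, other filters, 1 prior variance, a robust fit and leaving out each mouse. The acinar covariate, the acute phase values without βPrlR+/- mouse 4 and the neuron and glia calls under other settings were added after seeing the data. The genes named were the 10 members and, of each list, genes past the threshold, the largest value in each direction and the most abundant. LCN2, BCL3, OSMR, LEPR, CCND1, IL6, SAA1, Saa3, HP, CXCL2, CCL2, CD14, CD68, ADGRE1, CSF1R, MEN1 and the fibrinogen genes were named after their values were seen. Python 3.11.15 with numpy 2.4.6, pandas 2.3.3, scipy 1.17.1 and matplotlib 3.10.9 was used for the rest. A gene of the lists is not reported here. Sequences came from GENCODE vM21 and RefSeq.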

Additional observations from a re-analysis of the deposited data

Results flagged for a closer look

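In the group of 4 βPrlR+/- mice, the long PRLR transcript NM_011169.5 was lowest in mouse 1, at 3.90 scaled TPM, and the gap to the next mouse was 0.850 of the group's whole range, past the 95% critical value of Dixon's test for 4 samples. The other 3 mice lay between 5.36 and 5.62. Chance flags about 1 in 20 such groups, and 18 groups were checked, 10 genes and the 8 transcripts not listed at 0 in all 4 mice. The PRLR transcripts add up to the gene, so these are not separate checks. The group of 3 Prlr+/- mice is too small for this check.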

How the results depend on the processing

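Over 15 other settings and left-out mice, no gene among the 10 had an adjusted p under 0.05 (limma, lowest 0.590), and the same held for the 6 tested PRLR transcripts over 10 (lowest 0.364, for XM_006520036.1 with a pseudocount of 0.1, where its log2 fold change was −2.24). PRLR stayed between −0.31 (without Prlr+/- mouse 2) and −0.041 (without βPrlR+/- mouse 1), JAK2 between −0.21 and −0.021 and STAT3 between −0.32 and −0.0068. XM_006520036.1 and NM_011169.5 were lower in Prlr+/- mice in all 10, and with a mouse left out they ran from −1.43 to −1.11 and from −0.69 to −0.45. The number of genes past the adjusted p, 10 in all mice, was 6 with upper-quartile scaling, 18 with a pseudocount of 0.1, 4 with all genes above 0 and 6 with the acinar covariate, and leaving out single mice gave 2 (βPrlR+/- mouse 4 out) to 13 (βPrlR+/- mouse 3 out). It was 5 without βPrlR+/- mouse 1, Prlr+/- mouse 1 or Prlr+/- mouse 2. The cause was not tested. The number of members whose groups do not overlap, 0 in all mice, ran from 0 to 2 with a mouse left out: it was 1 without Prlr+/- mouse 2 (PRLR), where 2406 of all 14814 genes tested did not overlap (16.2%), and 2 without Prlr+/- mouse 3 (JAK2 and STAT5A), where 1785 of 14916 did not, and 0 in the others.

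In unscaled TPM, with a median of −0.12 over all genes, the sign turned for STAT5B (−0.056), CISH (−0.058), SOCS2 (−0.079) and the transcript XR_383824.3 (−0.036). With a mouse left out the sign turned in some fits: GHR ran from −0.21 to 0.0077, STAT5A from −0.24 to 0.040, STAT5B from −0.016 to 0.15, CISH from −0.12 to 0.24, SOCS1 from −0.071 to 0.0063, SOCS2 from −0.014 to 0.12 and SOCS3 from −0.34 to 0.10. Among the transcripts NM_001253781.1 ran from −0.12 to 0.093, XM_006520034.3 from −0.40 to 0.31, XM_006520037.2 from −0.31 to 0.20 and XR_383824.3 from −0.13 to 0.32. The correlation of PRLR with JAK2, −0.37 in all mice, was 0.20 with the TPM as deposited and 0.20 without the 2 mice farthest from the median of PRLR, where that with CISH was −0.14 and that with SOCS2, 0.035 in all mice, was −0.73. No paired analysis was possible because the labels give the groups no shared replicate numbers. The methods give the reads per sample, but the number behind a single TPM is unknown here, which matters most for SOCS1 and the minor PRLR transcripts.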
